A study of Mus musculus with 18 samples.

Results

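The matricellular proteins are secreted proteins that sit in the extracellular matrix without building its fibres, and that act on cells and growth factors instead. They are scarce in most adult tissues and are made again during repair. In the infarcted heart, dead muscle is first held by a provisional matrix of plasma and cellular proteins, among them fibronectin, and then replaced by a collagen scar laid down by activated fibroblasts. Matricellular proteins are known to be deposited along this way, where they bind integrins and other receptors on immune cells, fibroblasts and vessels.

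The transcripts of 10 genes of this kind were followed, out of 24419 gene symbols measured. They were chosen by name as matricellular and provisional matrix proteins, and with the values of these mice in view, since Spp1, Tnc and Postn had been seen among the largest rises at 72 h. Their levels at 72 h are therefore given as a description, with no test. A rise is read against the control mice, so the tests of Spp1, Tnc and Postn against control share mice with the choice. All 10 passed the filter of the tests, a level of 1 FPKM or more in any of the 18 mice, as 13333 symbols did. The genes are Ctgf, Thbs1, Thbs2, Thbs4, Tnc, Spp1, Fn1, Postn, Sparc and Cthrc1, and the table's Ctgf is the gene that the GENCODE M21 annotation lists as Ccn2.

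RNA came from the heart of 18 male C57BL/6 mice, 8 weeks old, in groups of 3. According to the study's text the control mice had a sham operation. In the other mice the left anterior descending coronary artery was tied off near its origin, and tissue was taken after 10 min, 1 h, 6 h, 24 h or 72 h. Mice were anaesthetised with pentobarbital, the labels give no genotype or drug that differs between groups, and each time point is a different set of mice. The tissue was infarcted left ventricle, so each value is a mean over muscle, vessels, fibroblasts and whatever blood cells had entered. In such bulk RNA, more cells of a type and more RNA per cell cannot be told apart.

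Levels are FPKM, the fragments per kilobase of transcript scaled to the mapped fragments of the library. This allows for gene length and library size, but not for a change in the make-up of the RNA between groups. Differences are on the log2(FPKM + 1) scale with their standard error (SE), which understates the change of genes at low levels. A gene is called where its Benjamini-Hochberg adjusted p from limma, over all genes tested in that comparison, is under 0.05. These p-values measure the spread among 3 mice against 3, for which an exact permutation test of a single gene could not go below p = 0.1. All comparisons with control share the same 3 control mice.

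The FPKM of a mouse summed to between 542418 and 600467, and its depth relative to the first control mouse, read from the smallest FPKM, lay between 0.807 and 1.33. The median of all genes lay 0.13 above control at 24 h and 0.29 above it at 72 h, and 0.20 higher at 24 h than at 6 h. Scaling by the median of ratios took these medians to 0.016, 0.029 and 0.0075. The split of called genes moved with it. At 6 h, 1543 genes were higher and 2233 lower than control, against 1981 and 1513 after that scaling. At 24 h, 3496 were higher and 1516 lower, against 2532 and 2322. At 72 h, 7081 were higher and 3226 lower, against 5158 and 4761. Between 6 h and 1 h, 1241 were higher and 1490 lower, against 1570 and 1090. From 6 h to 24 h, 1664 were higher and 258 lower, against 423 and 392.

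The summed FPKM of 6 cardiomyocyte markers, of which Tnnt2, Actc1 and Tnni3 had the highest levels, was 43037 to 45177 in control mice. At 72 h it was 17500 to 21288, and all 6, with Myh6 and Atp2a2 among them, were called lower, beside 24.2% of all genes. The 7 fibroblast markers, led by Col3a1, Col1a2 and Col1a1, summed to 253 to 284 in control mice, 185 to 252 at 6 h, 297 to 404 at 24 h and 3169 to 4259 at 72 h. The 6 macrophage and monocyte markers, led by Lyz2 and with Csf1r, Cd68 and Ccr2 among them, went from 186 to 211 in control mice to 483 to 694 at 24 h and 3424 to 4526 at 72 h. The 4 endothelial markers Pecam1, Cdh5, Tie1 and Kdr summed to 389 to 432 in control mice and 333 to 436 at 72 h. Of these, Kdr (-0.90, SE 0.15) and Tie1 (-0.41, SE 0.07) were called lower at 72 h, and Pecam1 and Cdh5 were not called. The 4 smooth muscle markers Tagln, Acta2, Myh11 and Cnn1 summed to 146 to 197 in control mice and 517 to 684 at 72 h, mostly from Tagln and Acta2. At 72 h 3 of the 4 were called higher, beside 53.1% of all genes. Myh11 was called lower (-1.31, SE 0.27; adjusted p = 0.00198, limma). The 4 neutrophil markers, led by S100a9 and S100a8 and with Cxcr2, summed to 2.32 to 4.92 in control mice, and the 3 mice of a group differed most in them at 6 h and 24 h. At 6 h they were at 986, 114 and 370, and at 24 h at 207, 42.5 and 953, in mice 1, 2 and 3. The mice at those extremes recur below, and the part of any cell type in the values of the 10 genes was not tested.

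**Figure D1:**
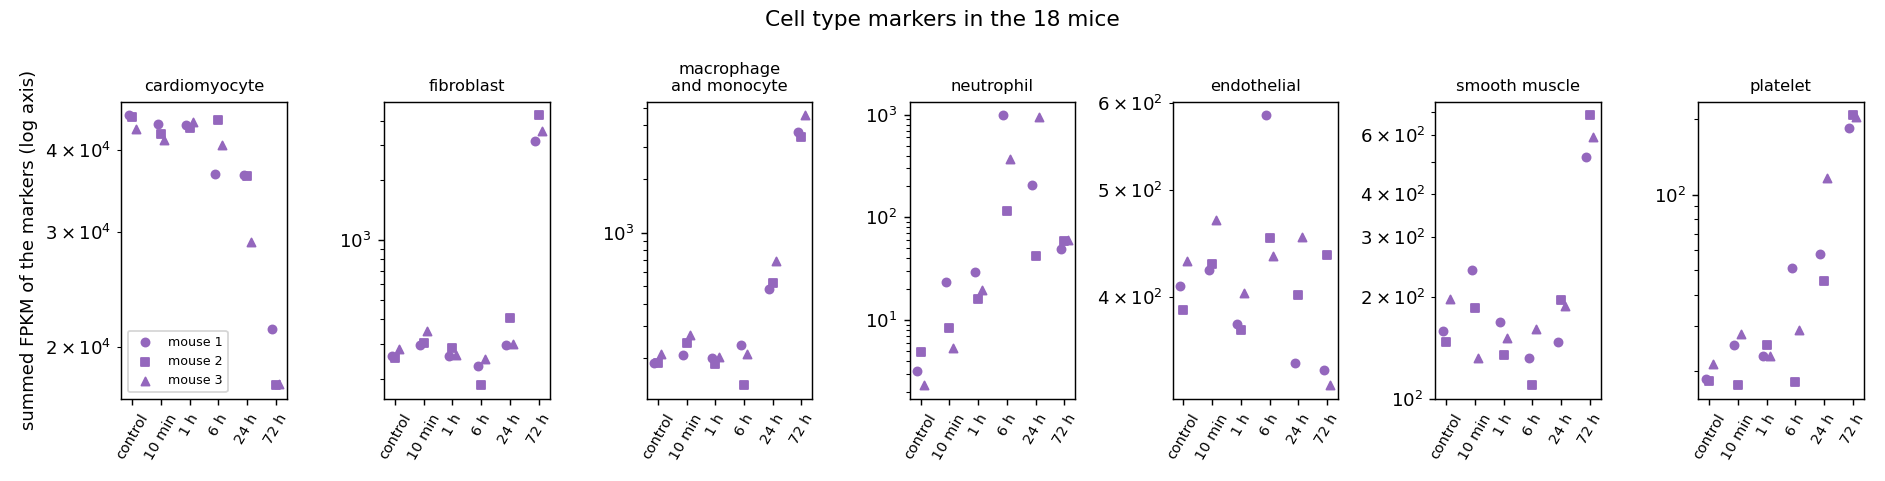
Summed FPKM of the markers of 7 cell types (vertical axes, logarithmic) in each of the 18 mice by group (horizontal axes), with mice 1, 2 and 3 as circles, squares and triangles. Fibroblast and macrophage sums stand highest at 72 h, and neutrophil sums are widest apart at 24 h, from 42.5 to 953.

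Promoter sequences of 6 of the 10 genes (Postn, Tnc, Spp1, Thbs2, Thbs4 and Sparc) were present in the RefSeq table of the GRCm38.p6 build, each with 250 bases before the start of transcription and 50 after it. Of the 32851 mouse promoters of the same length, 13.6% hold TATAAA, the letters of a TATA box, on either strand. The 4 below are shown because TATAAA occurs in them. They belong to 3 genes that stood at under 10 FPKM in control mice and above 85 at 72 h, and to Thbs2, which fell at 24 h. Capitals mark every motif found. In Thbs2 TATAAA lies on the other strand and so reads TTTATA. Tnc also holds the SP1 motif GGGCGG. Spp1 holds the ETS motif CCGGAAG on its other strand, which reads CTTCCGG. It holds the RUNX motif TGTGGTT on that strand too, which reads AACCACA. No motif overlaps another.
Postn: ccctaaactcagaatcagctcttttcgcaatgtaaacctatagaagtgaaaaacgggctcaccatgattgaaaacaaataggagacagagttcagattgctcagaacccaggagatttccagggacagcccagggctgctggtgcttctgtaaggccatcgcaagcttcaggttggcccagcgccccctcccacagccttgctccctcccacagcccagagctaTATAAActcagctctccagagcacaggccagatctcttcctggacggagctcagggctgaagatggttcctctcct
Spp1: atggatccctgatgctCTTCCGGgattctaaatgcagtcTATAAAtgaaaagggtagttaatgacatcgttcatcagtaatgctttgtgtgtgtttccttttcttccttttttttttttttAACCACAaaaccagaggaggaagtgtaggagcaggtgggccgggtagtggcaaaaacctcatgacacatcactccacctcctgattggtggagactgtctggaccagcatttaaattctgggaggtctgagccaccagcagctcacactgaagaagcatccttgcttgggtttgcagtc
Tnc: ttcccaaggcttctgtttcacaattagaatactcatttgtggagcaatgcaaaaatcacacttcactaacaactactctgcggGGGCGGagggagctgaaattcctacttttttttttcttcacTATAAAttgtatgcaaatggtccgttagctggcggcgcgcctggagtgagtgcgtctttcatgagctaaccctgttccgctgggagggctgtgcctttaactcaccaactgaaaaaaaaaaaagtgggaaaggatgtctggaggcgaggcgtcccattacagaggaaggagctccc
Thbs2: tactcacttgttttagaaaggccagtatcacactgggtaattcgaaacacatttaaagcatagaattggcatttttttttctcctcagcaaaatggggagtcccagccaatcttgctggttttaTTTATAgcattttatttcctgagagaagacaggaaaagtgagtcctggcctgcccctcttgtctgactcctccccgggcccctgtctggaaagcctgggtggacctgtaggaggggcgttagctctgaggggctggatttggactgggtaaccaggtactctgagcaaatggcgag

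The Postn promoter is chr3:54360857-54361156 on the + strand, and its TATAAA begins 26 bases before the start, a usual distance for a TATA box. The Spp1 promoter is chr5:104434861-104435160 on the + strand, with TATAAA 211 bases before the start. The Tnc promoter is chr4:64046966-64047265 on the - strand and that of Thbs2 is chr17:14694213-14694512 on the - strand, with the motif 126 bases before the start in each. So only the match in Postn lies at the usual distance of a TATA box. Thbs4 and Sparc hold no TATAAA. Over the 6 promoters, the AP-1 motif TGACTCA (in 5.2% of all promoters), the serum response CArG box (1.63%), the E-box CACGTG (7.15%) and the SMAD palindrome GTCTAGAC (0.213%) were not found. The TEAD motif GGAATG (14.7%) lies in the Thbs4 promoter, GGGCGG (35.7%) in those of Tnc and Thbs4, and TGTGGTT (5.27%) and CCGGAAG (8.86%) in that of Spp1. A match of letters is a description of these windows and not a site of binding.

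The 10 genes did not move together. Ctgf and Thbs1 were called higher at 1 h, Thbs4, Tnc and Spp1 joined them at 6 h, and Fn1, Postn, Sparc and Cthrc1 were called higher at 24 h, when Thbs2 was called lower. At 10 min no member was called, where 0.346% of all 13297 genes tested were. At an unadjusted p under 0.05 limma found 3 members (Fn1, Ctgf and Tnc) among 1955 genes. Of the 3, Tnc stood at 0.411 FPKM or less in all mice up to 1 h and passed the filter through later mice alone. At 1 h, 2 of 10 were called higher, against 0.669% of all genes. At 6 h, 5 of 10 were called higher and none lower, against 11.6% and 16.8% of all genes. At 24 h, 9 of 10 were called higher and 1 lower, against 26.2% and 11.4% of all genes. Of the 9, Cthrc1 stayed below 1 FPKM at 24 h and passed the filter through its 72 h mice alone. The median difference of the 10 from control was 0.16 at 10 min, 0.10 at 1 h, 1.01 at 6 h and 2.63 at 24 h, beside medians over all genes of 0.017, -0.015, -0.083 and 0.13.

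**Figure D2:**
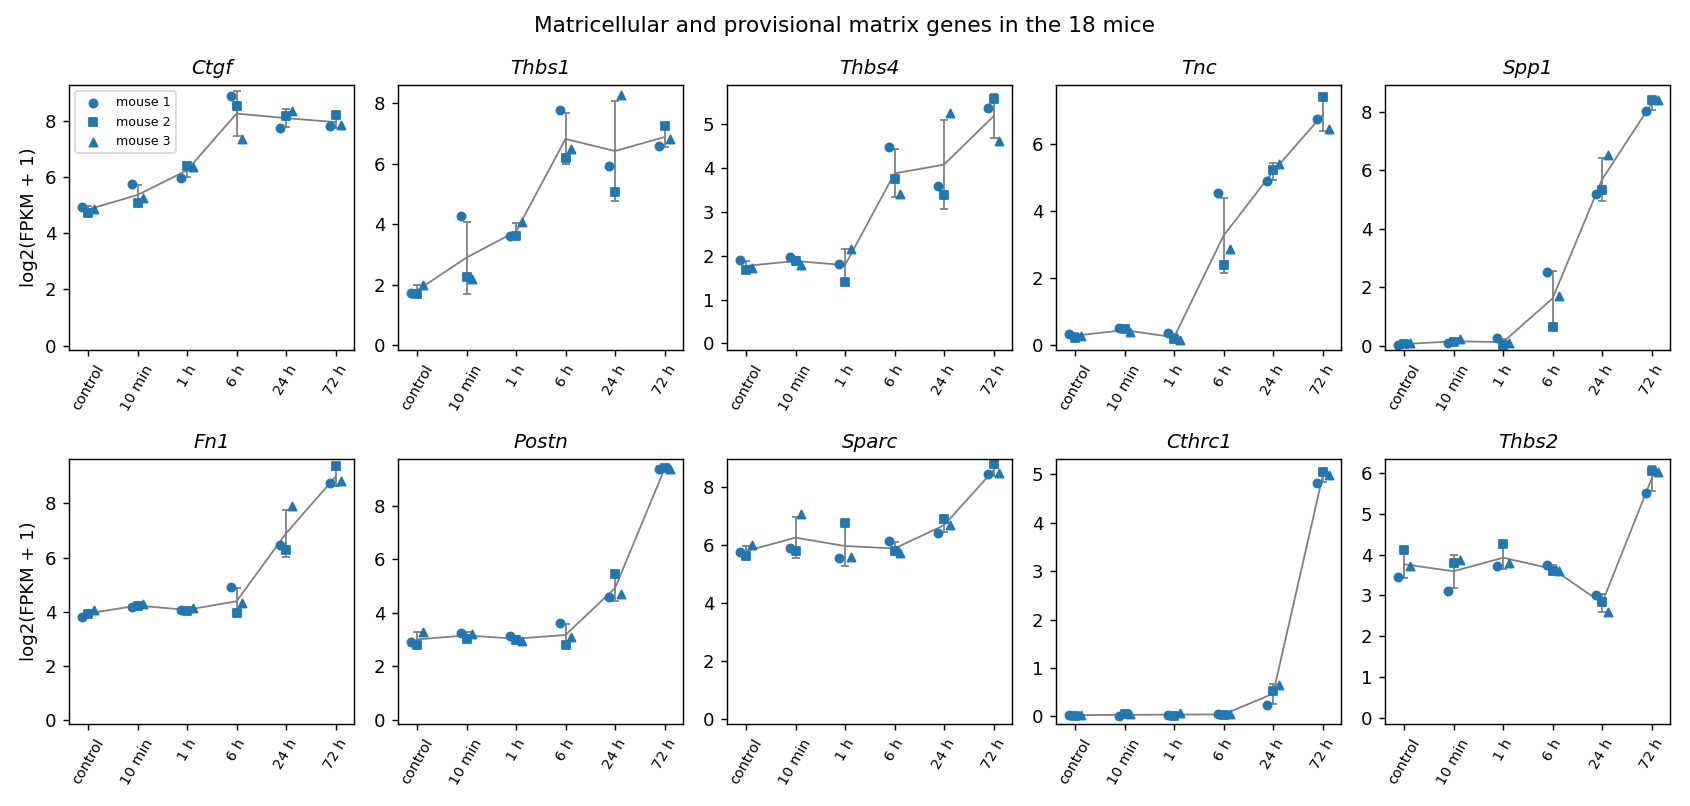
log2(FPKM + 1) of the 10 genes (vertical axes) in each of the 18 mice by group (horizontal axes), with mice 1, 2 and 3 as circles, squares and triangles, lines through the group means and bars of 1 SD. Ctgf and Thbs1 stand near their 72 h level by 6 h, while Postn and Cthrc1 stay low until 24 h or later.

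Ctgf encodes connective tissue growth factor, a CCN family protein that binds growth factors and is a classic target of TGF-beta and of mechanical stress. It lies at chr10:24595442-24598683 on the + strand. In the 3 control mice Ctgf stood at 29.8, 25.6 and 27.9 FPKM, and at 10 min at 52.4, 33.0 and 36.9. At 1 h it reached 60.9, 83.7 and 80.3, and at 6 h 468, 369 and 162. From 10 min on, every mouse lay above the control mice. The difference from control was 0.51 (SE 0.16) at 10 min, which was not called (adjusted p = 0.21, limma), 1.39 (SE 0.12) at 1 h (adjusted p = 0.00143) and 3.41 (SE 0.35) at 6 h (adjusted p = 0.00123). Between 1 h and 6 h it rose by 2.02 (SE 0.36; adjusted p = 0.0115, limma).

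Ctgf had no further rise after that. It stood at 212, 289 and 325 FPKM at 24 h and at 225, 290 and 229 at 72 h, and the mice of 6 h, 24 h and 72 h overlapped. The difference from control at 24 h was 3.24 (SE 0.16; adjusted p = 0.000308, limma), and 24 h differed from 6 h by -0.16 (SE 0.38; adjusted p = 0.778). The 6 h mean of 333 ± 156 FPKM (SD, n = 3) was 134% of the mean at 72 h. At 1 h the 3 mice held 30.3% of that mean, a larger share than any other member then.

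Thrombospondin 1, encoded by Thbs1 at chr2:118111876-118127133 on the + strand, is a large trimeric glycoprotein released by platelets and made by many stressed cells, and it binds CD36 and CD47 and activates latent TGF-beta. Thbs1 stood at 2.34, 2.23 and 3.03 FPKM in control mice and at 18.4, 3.77 and 3.53 at 10 min. The first of the 10 min mice stood well above the other 2, and the difference from control of 1.09 (SE 0.51) was not called (adjusted p = 0.373, limma) and was 0.40 without that mouse. At 1 h the values were 11.2, 11.3 and 15.8, above every control mouse, a difference of 1.95 (SE 0.15; adjusted p = 0.000653, limma). With the spread taken from all 18 mice, neither this call (adjusted p = 0.614) nor that of Ctgf at 1 h (adjusted p = 0.052) was kept.

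At 6 h Thbs1 reached 219, 71.8 and 90.0 FPKM, a mean of 127 ± 80.3 (SD, n = 3) that was 106% of its mean at 72 h. The difference was 5.01 (SE 0.37; adjusted p = 0.000473, limma) from control and 3.06 (SE 0.38; adjusted p = 0.00389) from 1 h. At 24 h the mice stood at 60.1, 32.4 and 309, the lowest and the highest levels seen in any mouse after 1 h. The difference from control was 4.61 (SE 0.73; adjusted p = 0.00659, limma), and it was 3.68 without mouse 3 and 5.29 without mouse 2 and was called in both. At 72 h the values were 95.2, 150 and 113, within the range of the 24 h mice.

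At 6 h and 24 h the high and low mice of Thbs1 were also those of the neutrophil markers. At 6 h mouse 1 had the highest level of Thbs1 and the highest neutrophil sum (986), and mouse 2 the lowest of both. At 24 h mouse 3 had the highest level of Thbs1 and the highest neutrophil sum (953), and mouse 2 the lowest of both. The orders also matched at 10 min, but not in the other groups. At 1 h mouse 1 had the lowest Thbs1 and the highest neutrophil sum (29.2). At 72 h Thbs1 was highest in mouse 2 and the neutrophil sum in mouse 3, and in control mice the orders were opposite. The 5 platelet markers, led by Pf4, Ppbp and Gp1ba, summed to 51.0, 18.0 and 28.9 at 6 h and to 58.3, 45.6 and 116 at 24 h. These sums had the same order of mice as Thbs1, as in control mice and at 72 h, but not at 10 min or 1 h. Most of the sum is Pf4, at 13.5 to 30.1 FPKM at 6 h and 41.7 to 89.5 at 24 h. At 24 h Pf4 and Ppbp were called higher, while Gp1ba (-0.34), Gp9 (0.06) and Itga2b (0.30) were not called. Whether either cell type had a part in the Thbs1 level was not tested.

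Thbs4 encodes thrombospondin 4, a pentameric member of the family that the heart makes under load, at chr13:92751590-92794818 on the - strand. It stood at 2.73, 2.21 and 2.29 FPKM in control mice and between 1.65 and 3.43 in the 6 mice of 10 min and 1 h. At 6 h the values were 21.2, 12.5 and 9.54, each above the highest value before. Thbs4 rose by 2.11 (SE 0.25) against control (adjusted p = 0.00203, limma) and by 2.09 (SE 0.29) against 1 h (adjusted p = 0.00561). At 24 h it stood at 11, 9.51 and 37.0, and the third mouse, with the highest neutrophil sum, was again the highest. The difference from control was 2.31 (SE 0.45; adjusted p = 0.0116, limma) and 1.72 without that mouse. At 72 h, at 40.1, 46.3 and 23.6, its mice overlapped those of 24 h.

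Thbs2, at chr17:14665500-14694235 on the - strand, encodes thrombospondin 2, a trimeric relative of thrombospondin 1 made mainly by fibroblasts and known to limit new vessels and matrix breakdown. Its course ran the other way. It stood at 9.96, 16.4 and 12.2 FPKM in control mice, between 7.69 and 18.0 in the mice of 10 min and 1 h, and between 11.1 and 12.5 at 6 h. At 24 h the values were 7.10, 6.10 and 5.02, below those of all 15 other mice. Thbs2 fell by 0.95 on the log2 scale (SE 0.19) against control (adjusted p = 0.0121, limma) and by 0.84 (SE 0.15) against 6 h (adjusted p = 0.0203). At 72 h it stood at 44.3, 65.6 and 64.3, above all other mice. The fibroblast markers were mixed at 24 h, with Col1a1, Col3a1 and Pdgfra called higher and Dcn called lower, at 67.6 to 88.9 FPKM against 120 to 128 in control mice (-0.68, SE 0.11; adjusted p = 0.00692, limma). Their part in the fall was not tested.

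The remaining thrombospondins, Thbs3 and Comp, also pentameric, are no members and were set beside them after their values were seen. Comp fell with Thbs2 at 24 h, from 1.58, 1.31 and 1.21 FPKM in control mice to 0.277, 0.105 and 0.159, a difference of -1.0 (SE 0.11; adjusted p = 0.0027, limma), and stood at 4.83, 7.49 and 7.0 at 72 h. Thbs3 stood between 3.34 and 7.07 FPKM in all mice up to 24 h, with a difference of 0.04 (SE 0.20; adjusted p = 0.9) at 24 h, and between 30.2 and 33.0 at 72 h. So of 5 thrombospondin genes at 24 h, Thbs1 and Thbs4 were called higher, Thbs2 and Comp lower and Thbs3 not at all, with the same direction of the 4 calls under median-of-ratios and quantile scaling. At 72 h all 5 stood above every control mouse.

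**Figure D3:**
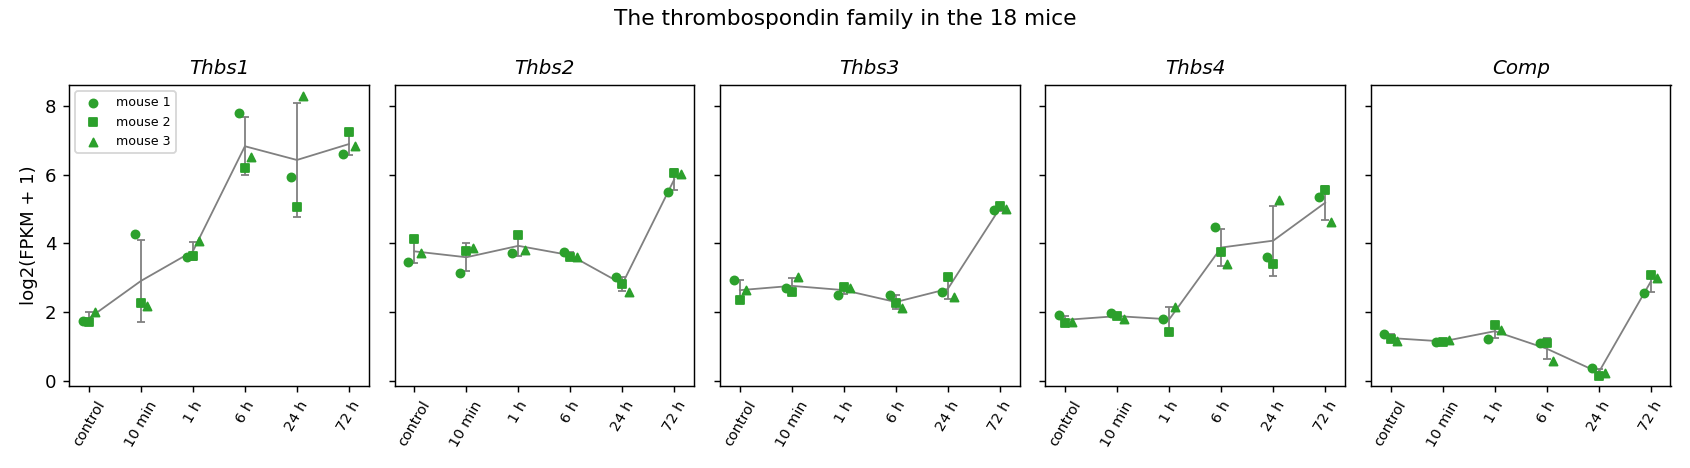
log2(FPKM + 1) of Thbs1, Thbs2, Thbs3, Thbs4 and Comp (vertical axes, 1 common scale) in each of the 18 mice by group (horizontal axes), with mice 1, 2 and 3 as circles, squares and triangles, lines through the group means and bars of 1 SD. Thbs1 and Thbs4 are up by 6 h, while Thbs2 and Comp dip at 24 h before they stand highest at 72 h.

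Tnc encodes tenascin C, a many-armed glycoprotein that is nearly absent from the adult heart and appears at the border of injured muscle, where it loosens the adhesion of cells. Tnc lies at chr4:63959785-64047015 on the - strand and is 1 of the 3 genes whose 72 h rise had been seen. It stood at 0.266, 0.155 and 0.212 FPKM in control mice and between 0.114 and 0.411 at 10 min and 1 h. At 6 h the values were 22.1, 4.21 and 6.28, all above the mice before, and the first of these mice, with the highest neutrophil sum, was the highest. Tnc rose by 2.98 (SE 0.49) against control (adjusted p = 0.00597, limma) and by 3.03 (SE 0.49) against 1 h (adjusted p = 0.0084). Without the first mouse these were 2.35 and 2.40, both still called.

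At 24 h the 3 mice were closer, at 28.7, 36.1 and 41.1 FPKM, each above the highest at 6 h. The difference from control of 4.89 (SE 0.14; adjusted p = 5.68e-05, limma) had the smallest adjusted p of the members in any comparison tested. From 6 h to 24 h Tnc rose by 1.91 (SE 0.50; adjusted p = 0.0445, limma), a call lost under both other scalings (adjusted p = 0.0887 and 0.0769). At 72 h it stood at 106, 166 and 85.5. By 24 h Tnc had 29.6% of its 72 h mean.

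Spp1 encodes osteopontin, a phosphorylated cytokine-like protein of bone matrix and of activated macrophages that binds CD44 and integrins. It lies at chr5:104435118-104441050 on the + strand, and its 72 h rise too had been seen before. In the 9 mice up to 1 h, Spp1 lay between 0.0112 and 0.193 FPKM, and at 6 h it stood at 4.68, 0.569 and 2.23. The 6 h mice lay above all mice before, with a difference of 1.57 (SE 0.40) from control (adjusted p = 0.027, limma) and 1.49 (SE 0.40) from 1 h (adjusted p = 0.0391). Neither call is firm. The first had an adjusted p of 0.0548 without the filter, 0.0601 without mouse 3 of 6 h, and 0.0832, 0.0799 and 0.0788 without control mouse 1, 2 or 3. The second had 0.0771 without the filter, 0.0536 and 0.0822 without mouse 1 or 3 of 6 h, and 0.091, 0.117 and 0.104 without mouse 1, 2 or 3 of 1 h.

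At 24 h Spp1 stood at 35.6, 39.3 and 90.8 FPKM, far from all earlier mice. The difference was 5.63 (SE 0.33) from control (adjusted p = 0.000519, limma), the largest of the 10, and 4.07 (SE 0.51) from 6 h (adjusted p = 0.0123). At 72 h it stood at 261, 335 and 339. Osteopontin is known as a product of macrophages, and the 6 macrophage and monocyte markers were all called higher at 24 h, beside 26.2% of all genes. At 6 h, 2 of the markers were called higher and 1 lower, beside 11.6% and 16.8% of all genes. The higher were Ccr2 (1.13, SE 0.17, adjusted p = 0.00468, limma) and Itgam (1.97, SE 0.36, adjusted p = 0.00865). The lower was Csf1r (-0.46, SE 0.12, adjusted p = 0.0247, limma). Its call was not kept after median-of-ratios scaling, with 3 markers higher and 0 lower, beside 1981 and 1513 of 13226 genes. Quantile scaling gave 3 higher and 1 lower, beside 1699 and 2141 of 13213 genes. The sum of the 6 markers at 6 h, 234, 140 and 209, is mostly Lyz2 (100 to 169 FPKM). The part of these cells in the Spp1 level was not tested.

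Fn1 encodes fibronectin, the adhesive glycoprotein on which the provisional matrix is built and on which collagen fibres are laid. It lies at chr1:71585520-71653200 on the - strand. Up to 1 h it was at 13 to 18.6 FPKM, and at 6 h at 28.9, 14.3 and 18.8, which overlapped the control mice and was not called. At 24 h it stood at 88.3, 77.4 and 239, with the third mouse, that of the highest neutrophil and macrophage sums, far above the others. The difference was 2.96 (SE 0.39) from control (adjusted p = 0.00459, limma) and 2.51 (SE 0.44) from 6 h (adjusted p = 0.0203). At 72 h the values were 435, 665 and 452, and the 24 h mean was 26.1% of their mean.

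Postn encodes periostin, a marker of activated fibroblasts that promotes the cross-linking of collagen, at chr3:54361109-54391037 on the + strand. In the 12 mice up to 6 h it stayed between 5.95 and 11.1 FPKM. At 24 h it stood at 22.9, 43.1 and 25.2, above all of these. Postn rose by 1.92 (SE 0.25) against control (adjusted p = 0.00433, limma) and by 1.75 (SE 0.28) against 6 h (adjusted p = 0.0174). Postn was highest at 24 h in mouse 2, which had the lowest neutrophil sum (42.5) and the highest fibroblast sum (404).

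At 72 h Postn stood at 654, 683 and 651 FPKM, a mean of 663 ± 18.0 (SD, n = 3) with the smallest spread of the 10 genes for its size. At 24 h Postn had 4.58% of that mean. The difference between 24 h and 72 h was 4.46, beside 6.37 between control and 72 h.

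Sparc encodes osteonectin, a collagen-binding protein that is needed for a firm scar and that resting fibroblasts and endothelial cells also make. It lies at chr11:55394500-55423183 on the - strand and had the highest control level of the 10 genes, at 53.7, 48.3 and 62.8 FPKM. Before 24 h, 2 mice stood apart, mouse 3 of 10 min at 133 and mouse 2 of 1 h at 107, with the other 7 mice of 10 min, 1 h and 6 h between 46.1 and 69.5. The fibroblast sum of these mice, 350 and 285, was the highest of their groups. At 24 h Sparc stood at 85.6, 120 and 104, above every control mouse but overlapping those 2 mice. The difference was 0.89 (SE 0.15) from control (adjusted p = 0.00745, limma) and 0.80 (SE 0.17) from 6 h (adjusted p = 0.0283), and the latter was not called after median-of-ratios (0.55, adjusted p = 0.0878) or quantile scaling (0.68, adjusted p = 0.057). At 72 h it stood at 348, 447 and 358.

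Cthrc1 encodes a secreted protein with a collagen triple helix repeat, known from activated fibroblasts of the infarct and from injured arteries. It lies at chr15:39076932-39087121 on the + strand. In the 12 mice up to 6 h it was at 0.0525 FPKM or less, and it was listed at 0 in mouse 1 of 10 min. At 24 h it stood at 0.186, 0.434 and 0.560, low but above all earlier mice. Since Cthrc1 passed the filter through its 72 h mice alone, its test at 24 h is one of a gene below the level set for testing. The difference of 0.44 (SE 0.12) from control had an adjusted p of 0.0296 (limma), or 0.0284 without the filter, but the call was not kept without mouse 2 of 24 h (adjusted p = 0.0615) or without control mouse 1, 2 or 3 (adjusted p = 0.0916, 0.0924 and 0.0839). At 72 h it stood at 27.3, 32.0 and 30.8, so that 24 h held 1.31% of the 72 h mean, the smallest share of the 10 genes.

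**Figure D4:**
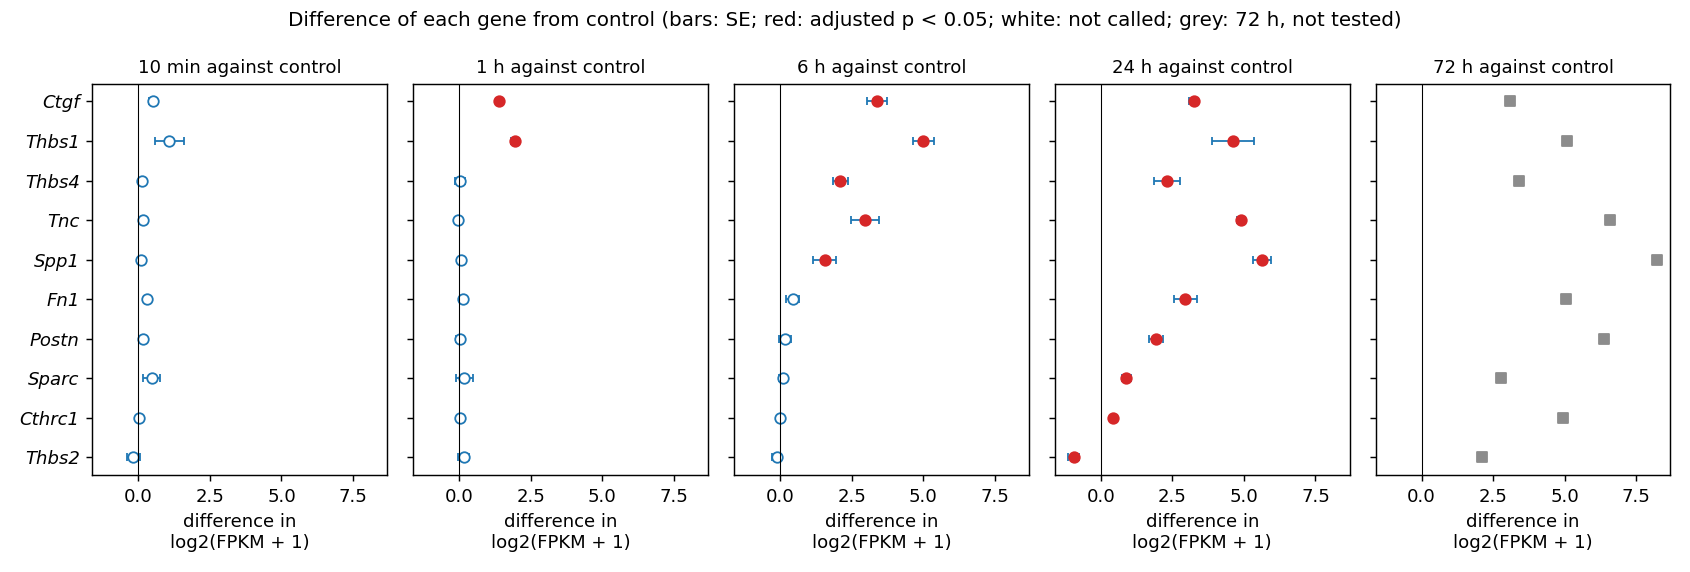
Difference of each of the 10 genes from control in log2(FPKM + 1) (horizontal axes) at the 5 times, 1 panel each, with bars of 1 SE, red points for an adjusted p under 0.05, white points for genes not called and grey squares for the untested 72 h values. The number of red points grows from 0 at 10 min to 2, 5 and 10. The 10 at 24 h include Thbs2, which was lower, and Cthrc1, which passed the filter through its 72 h mice alone.

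The steps between successive times were compared as well. From 1 h to 6 h, 5 of 10 were called higher (Ctgf, Thbs1, Thbs4, Tnc and Spp1), against 9.32% of all genes. From 6 h to 24 h, 5 were called higher (Spp1, Fn1, Tnc, Postn and Sparc) and 1 lower (Thbs2), against 12.5% and 1.94% of all genes. The early genes did not differ detectably in that step, at -0.16 (SE 0.38) for Ctgf, -0.40 (SE 0.79) for Thbs1 and 0.20 (SE 0.50) for Thbs4, with adjusted p of 0.778, 0.736 and 0.793 by limma. The sign of the Thbs4 value turned after median-of-ratios scaling (-0.034). Cthrc1 lay higher in all 24 h mice than in all 6 h mice by 0.43 (SE 0.12) and missed the threshold (adjusted p = 0.0577, limma).

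The calls of this step rest on few mice. Without mouse 2 of 6 h, mouse 3 of 6 h or mouse 2 of 24 h none of the 6 members was called, and over all genes the 1664 called higher became 1, 1 and 27. Without mouse 1 of 6 h 4 members were called higher and none lower, beside 191 and 37 of 13326 genes. Without mouse 1 of 24 h 5 were higher (Cthrc1 in place of Tnc) and 1 lower, beside 1745 and 354 of 13325. Without mouse 3 of 24 h 3 were higher and 1 lower, beside 873 and 197 of 13327. Of the 17 calls of members against control at 1 h, 6 h and 24 h, those lost when 1 mouse was left out were Spp1 at 6 h and Cthrc1 at 24 h.

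At 72 h all 10 genes stood above every control mouse, as did 55.1% of all genes tested, and limma called 53.1% of all genes higher and 24.2% lower. This contrast was used in choosing the genes, and nothing is read from the count. The differences from control were 8.23 for Spp1, 6.58 for Tnc, 6.37 for Postn, 5.07 for Thbs1, 5.06 for Fn1, 4.92 for Cthrc1, 3.41 for Thbs4, 3.10 for Ctgf, 2.78 for Sparc and 2.1 for Thbs2. Against 24 h, 7 of the 10 stood above every mouse of that time, as did 37.3% of all genes. The 3 that overlapped were Ctgf, Thbs1 and Thbs4, the genes of the early rise, with differences of -0.14, 0.46 and 1.11. The mean FPKM of Thbs1 ran against the sign of its 0.46, at 134 at 24 h and 120 at 72 h. The largest differences from 24 h were 4.48 for Cthrc1, 4.46 for Postn and 3.05 for Thbs2, and Spp1 (2.60), Fn1 (2.1), Sparc (1.89) and Tnc (1.69) followed.

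The order of the levels changed with time. In control mice Sparc (mean 54.9 FPKM) led, followed by Ctgf (27.8), Fn1 (14.3), Thbs2 (12.8), Postn (7.09), Thbs1 (2.54), Thbs4 (2.41), Tnc (0.211), Spp1 (0.0351) and Cthrc1 (0.0192). Of these neighbours, Fn1 and Thbs2, Thbs1 and Thbs4, and Spp1 and Cthrc1 overlapped in their mice. At 6 h Ctgf (333) and Thbs1 (127) led and overlapped, with Sparc (58.7) next and apart from both. At 24 h the order from Ctgf (276) through Fn1 (135), Thbs1 (134), Sparc (103), Spp1 (55.2), Tnc (35.3) and Postn (30.4) to Thbs4 (19.2) held no neighbours whose mice were separate.

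By 72 h Postn, seventh at 24 h, led at 663 FPKM, followed by Fn1 (517), Sparc (384), Spp1 (312), Ctgf (248), Thbs1 (120), Tnc (119), Thbs2 (58.1), Thbs4 (36.6) and Cthrc1 (30.0). Sparc stood apart from Spp1, Ctgf from Thbs1, and Tnc from Thbs2, while the other neighbours overlapped. Together the 10 genes summed to 115 to 133 FPKM in control mice, 359 to 857 at 6 h, 551 to 1177 at 24 h and 2236 to 2880 at 72 h. Their share of all FPKM of a mouse was 0.0196 to 0.0229% in control mice and 0.399 to 0.531% at 72 h.

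Of 24 other matricellular genes, 16 passed the filter. At 1 h 1 of them was called higher, beside 0.669% of all genes. It was Cyr61, which encodes the CCN protein next in kind to Ctgf. Cyr61 was singled out after its values were seen. It stood at 25.1, 20.7 and 19.1 FPKM in control mice and at 146, 160 and 226 at 1 h, a difference of 2.96 (SE 0.17; adjusted p = 0.000127, limma). It had lower values again at 24 h (51.1, 69.6 and 132) and at 72 h (55.0, 75.5 and 63.4), times at which Ctgf stood between 212 and 325.

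At 6 h 4 of the 16 were called higher and 2 lower, beside 11.6% and 16.8% of all genes. At 24 h these counts were 4 and 6, beside 26.2% and 11.4%, so the share called higher was near that of all genes. The list median at 24 h was -0.43, beside 0.13 for all genes. The 4 higher at 24 h were Cyr61 (1.81), Fstl1 (0.98), a follistatin-like protein, Tgfbi (2.68), a TGF-beta induced relative of periostin, and Wisp1 (2.06), a further CCN protein. The 6 lower were Comp (-1.0), Fbln1 (-1.13), Fbln5 (-0.54), Smoc2 (-0.75), Sparcl1 (-0.86) and Tnxb (-0.88). Sparcl1, or hevin, is the nearest relative of Sparc and had the highest mean of the list over the 18 mice. It stood at 263 to 282 FPKM in control mice and at 123 to 176 at 24 h, where Sparc was higher than in control mice, and the difference was called (SE 0.14; adjusted p = 0.00658, limma). The tenascin Tnxb likewise was called lower at 24 h, where Tnc was called higher. After median-of-ratios scaling the 24 h counts were 4 higher and 7 lower, beside 2532 and 2322 of 13231 genes. After quantile scaling they were 4 and 8, beside 2205 and 2729 of 13215 genes.

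At 72 h 12 of the 16 were called higher and 3 lower (Sparcl1, Spock2 and Tnxb), beside 53.1% and 24.2% of all genes. Of the 12, Tnn passed the filter through its 72 h mice alone. It stood at 2.19 to 7.24 FPKM there and at 0.573 or less in all other mice. The list median was 1.39, beside 0.29 for all genes. Median-of-ratios scaling gave 11 higher and 4 lower, beside 5158 and 4761 of 13233 genes. Quantile scaling gave 10 and 4, beside 4259 and 5786 of 13218 genes. Fstl1 stood at 616 to 714 FPKM at 72 h, against 44.4 to 58.3 in control mice (3.63, SE 0.11; adjusted p = 3.17e-08, limma), a level like that of Postn. Wisp1 stood at 26.8, 36.2 and 32.0, against 0.887 to 1.65 (3.85, SE 0.15; adjusted p = 8.86e-08), and Tgfbi at 48.9 to 75.4, against 5.12 to 6.35 (3.27, SE 0.15; adjusted p = 2.32e-07). Mgp, an inhibitor of calcification, stood at 364 to 381, against 151 to 162 (1.25, SE 0.06; adjusted p = 4.68e-07).

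Of 5 other provisional matrix genes, 2 passed the filter. Vcan, which encodes the large proteoglycan versican, stood at 2.96 to 4.46 FPKM in control mice and at 15.9, 5.37 and 9.41 at 6 h, a rise of 1.11 (SE 0.33; adjusted p = 0.0415, limma). It stood at 14.7, 14.6 and 40.0 at 24 h, highest in the same mouse as Fn1, and at 30.4 to 51.1 at 72 h. Vtn, which encodes the plasma protein vitronectin, was called lower from 6 h on, from 10.6 to 11.2 FPKM in control mice to 5.0 to 5.89 at 6 h and 4.10 to 5.04 at 72 h. The fibrinogen genes Fga, Fgb and Fgg, made in the liver, were listed at 0 or at most 0.0432 FPKM in every mouse.

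All 16 genes of receptors that bind these proteins passed the filter, and 7 were called higher and 2 lower at 6 h, beside 11.6% and 16.8% of all genes. At 24 h these counts were 10 and 2, beside 26.2% and 11.4%, and at 72 h 13 and 2, beside 53.1% and 24.2%. Of the 13, Itgb8 passed the filter through its 72 h mice alone. It stood at 0.706 to 1.04 FPKM there and at 0.391 or less in all other mice. Quantile scaling left 15 of the 16 above the filter. It made the 24 h counts 8 and 2, beside 2205 and 2729 of 13215 genes. The 72 h counts became 11 and 3, beside 4259 and 5786 of 13218 genes. The integrin subunit Itgb3, whose heterodimer with the alpha v chain binds osteopontin, vitronectin and periostin, stood at 1.03 to 1.42 FPKM in control mice, at 7.41, 3.36 and 3.54 at 6 h and at 10.1, 14.3 and 10.5 at 72 h. It was called at 6 h (1.32, SE 0.25; adjusted p = 0.00952, limma) as well as at 24 h and 72 h. Cd44, the hyaluronan receptor that also binds osteopontin, stood at 1.22 to 1.60 FPKM in control mice, at 16.8, 5.53 and 7.32 at 6 h and at 10.4, 8.32 and 27.3 at 24 h (2.57, SE 0.39; adjusted p = 0.00593, limma).

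Itgb1, the beta chain shared by most fibronectin receptors, was the most abundant integrin of the list, at 253 to 270 FPKM in control mice, 459 to 512 at 24 h and 507 to 666 at 72 h (1.14, SE 0.11; adjusted p = 1.43e-05, limma). The syndecan Sdc1 had a larger difference at 72 h (2.41, SE 0.12; adjusted p = 3.21e-07, limma), from 2.38 to 2.48 FPKM to 14.4 to 20.4. Lrp1, an endocytic receptor that clears thrombospondins, stood at 73.0 to 81.4 FPKM in control mice and 277 to 378 at 72 h (2.01, SE 0.12; adjusted p = 1.11e-06). Cd36, a thrombospondin receptor that also carries fatty acids into heart muscle, changed in both directions. It stood at 389 to 421 FPKM in control mice, was called higher at 6 h, at 526 to 594 (0.50, SE 0.07; adjusted p = 0.00438, limma), and was called lower at 72 h, at 194 to 226 (-0.92, SE 0.08; adjusted p = 1.06e-05, limma).

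The likeness of courses was described over the 15 mice after ligation by the root mean square (RMS) gap between 2 genes in log2(FPKM + 1) less the control mean. The genes nearest to the members were of several kinds. Postn lay nearest to Trem2 (RMS 0.30) and Mpeg1 (0.50), which are known from macrophages. Cthrc1 lay nearest to the macrophage gene Ms4a7 (0.22) and to P4ha3 (0.24), a collagen prolyl hydroxylase subunit. Spp1 lay nearest to Lgals3 (0.53), which encodes galectin 3, and next to Tnc (1.08). Tnc lay nearest to Timp1 (0.63), an inhibitor of matrix proteases, and to Lgals3 (0.72).

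The nearest genes of Thbs1 and Ctgf lay at wider gaps than those of any other member. Thbs1 was nearest to the chemokine gene Ccl2 (RMS 0.74) and to Adamts4 (0.94), a protease that cuts versican, and Ctgf to the chemokine gene Ccl7 (0.68) and to Ch25h (0.75), a cholesterol hydroxylase. Thbs4 was nearest to Cd44 (0.40) and Hp (0.40), the haptoglobin gene, and Fn1 to Serpinb1a (0.35) and Cotl1 (0.38). Thbs2, with its dip at 24 h, was nearest to its relative Comp (0.30) and to Itgbl1 (0.34). Sparc was nearest to Plk4 (0.38), a kinase of the centriole, and Nrros (0.39). The mice are shared by all genes, so the mice that stand apart at 6 h and 24 h enter each of these gaps.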

How the data were processed

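The labels give 18 heart samples of polyA RNA, 3 for each of 6 groups, and groups were taken from the sample titles. According to the paper's methods and the labels, the authors trimmed paired-end reads with cutadapt 1.18, mapped them to mm10 with HISAT2 2.1.0 and estimated expression with StringTie 1.3.4d. The values deposited are FPKM, 1 per symbol and mouse, as the authors made them. The annotation is not given in the sources used here. The row of Ctgf, with 3019 rows in all, is written with over 8 significant digits, for which no origin is given. The table holds no counts, so no counting error or exact depth could be computed, and precision comes from the 3 mice of a group. Relative depth was read from FPKM up to 0.1.

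FPKM were used as deposited, as log2(FPKM + 1), for genes that reached 1 FPKM in any mouse. Each comparison was fitted on its 6 mice with limma 3.58.1 in R 4.3.3 (lmFit, eBayes with a variance trend), with two-sided p-values adjusted after Benjamini and Hochberg across the genes of the comparison. The cufflinks test of the authors, which needs the reads, was not repeated. Gene positions are those of GENCODE M21 on mm10 and promoters those of RefSeq. Summaries and plots used Python 3.11.15, numpy 2.4.6, pandas 2.3.3 and matplotlib 3.10.9. The steps were tested on simulated data.

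The 10 members and the lists beside them were chosen with earlier results of these data known. From each list the text names the 3 genes with the highest mean FPKM over the 18 mice and the 3 with the largest difference among those called at 24 h or 72 h, and for each member the 2 genes with the smallest RMS gap, leaving out predicted genes. Genes named beyond this rule (Thbs3, Comp, Cyr61, Dcn, Pdgfra, Itgam, Itgb8, Tnn and the genes that complete a short count) were chosen after their values were seen. The alternatives were the replicate number as a block, leaving out each mouse in turn, a fit of all 18 mice at once, a pseudocount of 0.1, no filter, no variance trend, and scaling by quantiles or by the median of ratios. Protein data of the study were not analysed here.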

Additional observations from a re-analysis of the deposited data

How the results depend on the processing

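Of the 28 calls of members in the tested comparisons, 0 were lost with a pseudocount of 0.1 or without the variance trend, 3 without the filter (Spp1 at 6 h against control and against 1 h, and Tnc from 6 h to 24 h), 2 under each of the other scalings (Tnc and Sparc from 6 h to 24 h), and 2 with all 18 mice in one fit (Thbs1 and Ctgf at 1 h). In that one fit the members called higher at 1 h were 0 in place of 2, beside 51 in place of 89 over all genes. From 6 h to 24 h the members called higher were 5, beside 1664 of 13328 genes. They were 3 under quantile normalization, beside 385 of 13217, and 3 under median-of-ratios scaling, beside 423 of 13233. With 1 mouse left out they ranged from 0 to 5 and those called lower from 0 to 1. The genes called higher then ranged from 1 to 1745. No call turned its direction under any of these settings. Values not called in that step did turn: Thbs4 was -0.034 under median-of-ratios scaling, and with 1 mouse left out Ctgf ranged from -0.61 to 0.15, Thbs1 from -1.33 to 0.28 and Thbs4 from -0.39 to 0.54. The cause was not tested.

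With the replicate number as a block, 21 of the 28 calls were kept, Cthrc1 at 24 h was lost (adjusted p = 0.054), and from 6 h to 24 h 0 members were called higher and 0 lower, as over all genes 1 higher and 0 lower. The numbers name different mice, and the deviations of same-numbered mice correlated between -0.33 and 0.41, so they were not taken as pairs.

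The counts over all genes moved as well: at 6 h from 1543 higher and 2233 lower to 763 and 877 without control mouse 1, at 24 h from 3496 and 1516 to 1262 and 366 without the same mouse, and from 6 h to 24 h from 1664 and 258 to 4848 and 1002 in the one fit. At 10 min the 33 higher and 13 lower genes became 0 and 0 without mouse 3 of that group. The differences of 72 h from control kept their sign in each setting, and of those from 24 h that of Thbs1 turned to -0.22 without mouse 2 of 24 h. Those of Spp1, Tnc and Cthrc1 from control depend on the pseudocount, at 11.2, 8.54 and 7.98 with 0.1, where Cthrc1 passes Postn (6.55). From 1 h to 6 h Tnc (5.01) and Spp1 (3.47) then pass Thbs1 (3.14).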
